A study of Mus musculus with 30 samples.

Results

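Endothelial cells form the inner lining of the aorta and of the small vessels in its wall and in the fat around it. The 40 genes described here are commonly used as markers or regulators of these cells. They were listed by name, at a time when earlier results of these data were known. Each gene's level was the sum of FPKM (fragments counted relative to transcript length and library size, so that levels of different genes can be set side by side) over its transcripts listed in the files of all 30 libraries. Transcript identifiers were matched to gene symbols through the GENCODE M21 annotation of mm10. All 40 members were found among the 14379 genes with such a sum, and 39 were among the 13223 genes tested, which reached 1 FPKM in at least 5 libraries. Prox1, the transcription factor that specifies lymphatic endothelium, did not reach that level and was not tested.

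All groups were abdominal aortas of wild-type C57BL/6 mice, profiled by RNA sequencing after depletion of ribosomal RNA, with 5 libraries per group. In 4 groups, angiotensin II at 500 ng/kg/min was given together with a compound. These compounds were ethoxysanguinarine at 5 mg/kg/day (AngII+ETH), baicalin at 5 mg/kg/day (AngII+BAI), gastrodin at 5 mg/kg/day (AngII+GAS) and the angiotensin receptor blocker valsartan at 10.4 mg/kg/day (AngII+VAL). The AngII group had the same infusion with no compound, and the Control group had saline for 28 days. Day 28 was given for the libraries of every group. Neither the age of the mice nor whether each library came from a separate mouse was stated, so p-values measure the spread between these libraries.

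As background, the aortic endothelium separates blood from the smooth muscle layer, sets vascular tone, keeps the surface free of clots and, when activated, lets leukocytes attach. Its cells hold together through cadherin and adhesion proteins, and they survive and sprout under signals from vascular endothelial growth factor (VEGF) and angiopoietin receptors. Transcription factors of the ETS, SOX and KLF families keep their identity. Capillary, venous and lymphatic endothelial cells carry further markers that the aortic lining largely lacks.

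Depth, read from the low FPKM values, was 68.6 to 80.2 M reads (megareads) per library. A floor of 3 reads in a 2 kb transcript corresponded to 0.0187 to 0.0219 FPKM, which covers counting error only. Smooth muscle markers checked the labelled tissue: their summed level was 1613 to 12295 FPKM. Markers of other tissue varied widely between libraries, with sums of 519.6 to 5356 FPKM for brown adipocytes, 2.60 to 784 for neurons, 10.6 to 3117 for skeletal muscle and 211 to 2804 for macrophages. In a whole aorta, fewer endothelial cells and less RNA per endothelial cell cannot be told apart. A pair of libraries stood apart. In library 1 of AngII+BAI, 8032 shared transcripts were listed at 0, against 2429 to 4977 in the other 29 libraries, and 16.6% of transcripts over 4 kb were at 0, against 1.07% to 3.54%. Robo4, Flt1, Notch4 and Calcrl were listed at 0 there. Library 2 of AngII+GAS had the next highest number of zeros, 4977, and the lowest Pecam1 and Vwf. Fold changes of members that either library moved by over 1.5 times are given without it as well.

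Endothelial RNA was present in every library. Averaged over the 30 libraries, Aqp1, a water channel, stood highest at 140.7 FPKM. Ramp2 followed at 50.5 FPKM, and then Gpihbp1 at 46.2, Eng at 43.2 and Cdh5 at 41.2 FPKM. The lowest tested members were Dll4 at 2.51, Calcrl at 1.15 and Sele at 0.63 FPKM. The members' spread between libraries of 1 group was like that of other genes: its median was 0.40 on the log2(FPKM + 1) scale, against 0.39 over all 13223 genes. Sox7 and Esam were the steadiest, both with an SD of 0.17, and Lyve1 was the least steady, with an SD of 1.37.

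**Figure D1:**
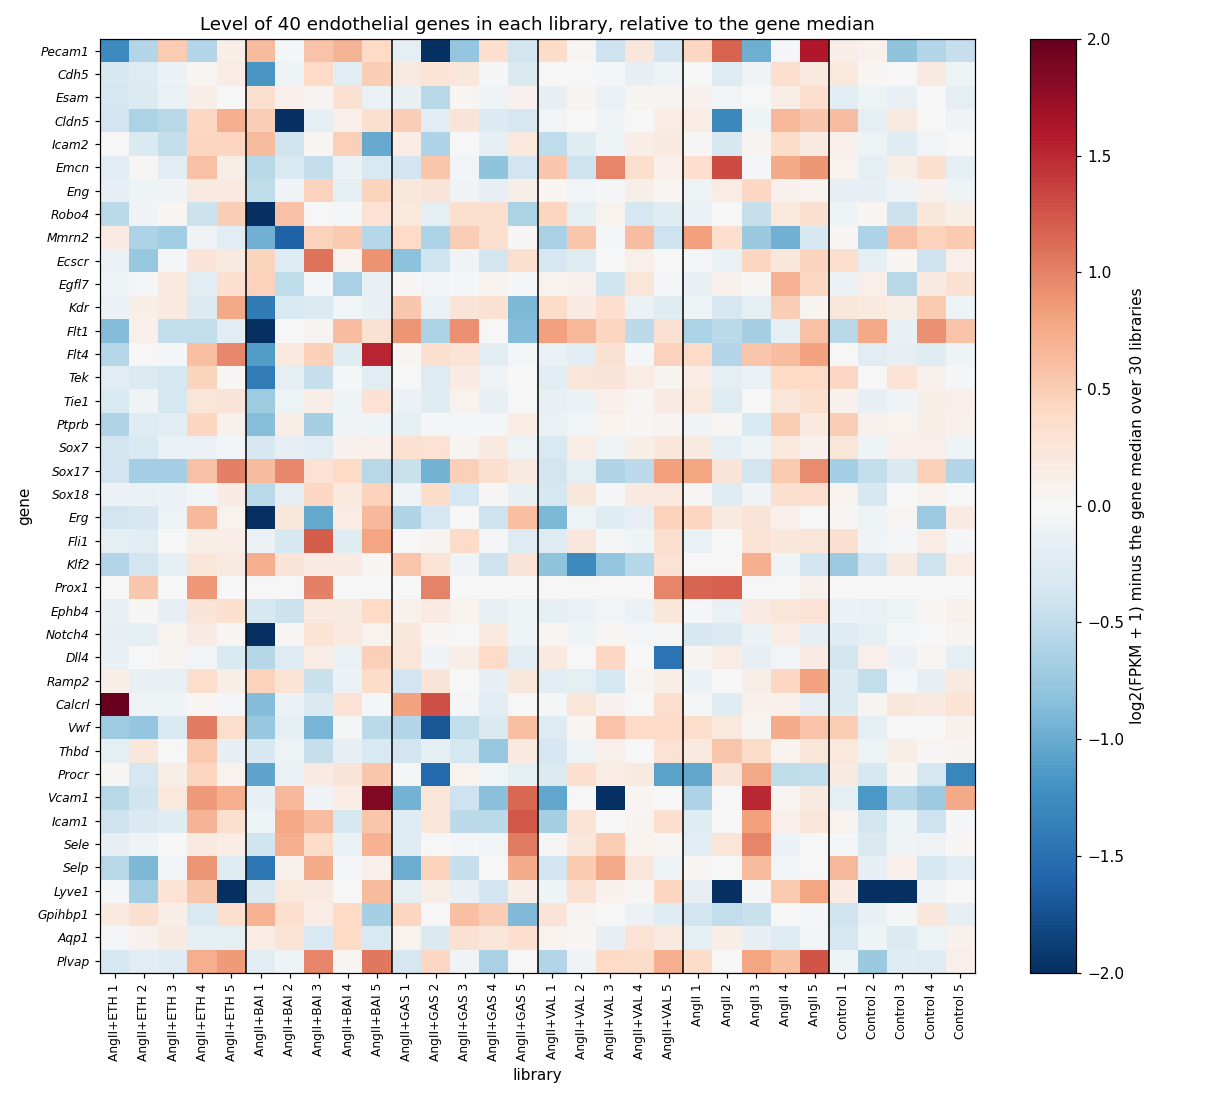
Level of each of the 40 genes (rows) in each library (columns, grouped by treatment), as log2(FPKM + 1) minus the gene's median over the 30 libraries, with red above and blue below that median. Library 1 of AngII+BAI is blue for Robo4, Flt1, Erg and Notch4, and Lyve1 is blue in AngII 2, Control 2, Control 3 and AngII+ETH 5.

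No member passed the threshold (adjusted p under 0.05, limma) in any of 10 comparisons. Over all genes tested, 0% were called in AngII against Control, 0% in AngII+ETH against AngII, 0.333% in AngII+BAI against AngII, 0.0151% in AngII+GAS against AngII and 0% in AngII+VAL against AngII. Against Control, 0% were called in AngII+ETH, 1.44% in AngII+BAI, 0.00756% in AngII+GAS and 0% in AngII+VAL. All infused groups together against Control gave 0.0454%.

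At an unadjusted p under 0.05, 3 of the 39 members were past the threshold in AngII against Control, where 11.2% of all genes were. The counts against AngII were 1 member in AngII+ETH (3.41% of all genes), 6 in AngII+BAI (14.6%), 5 in AngII+GAS (13.7%) and 1 in AngII+VAL (10.8%). Against Control they were 0 members in AngII+ETH (5.18% of all genes), 6 in AngII+BAI (19%), 1 in AngII+GAS (3.7%), 1 in AngII+VAL (3.84%) and 1 in all infused groups together (6.43%). The 4 comparisons with AngII share its 5 libraries and are not independent of each other.

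The median log2 fold change of the 39 members was 0.14 in AngII against Control, beside 0.11 over all genes tested, and 28 members had a positive sign. The sign depended on scaling: 24 were positive after median-ratio scaling and 20 after quantile normalization, when the median of all genes was 0.025 and -0.023. Against AngII, the members' median was -0.15 in AngII+ETH (all genes -0.095), -0.14 in AngII+BAI (all genes -0.011), -0.11 in AngII+GAS (all genes -0.17) and -0.10 in AngII+VAL (all genes -0.12). In AngII+GAS, 13 members were positive, against 23 and 25 after those 2 scalings, and in AngII+VAL 11, against 21 and 19. In AngII+ETH, 7 were positive, against 10 and 13, and in AngII+BAI 12, against 10 and 12. With neuron and skeletal muscle levels as terms in the fit, the members' median was -0.10 in AngII+ETH, -0.021 in AngII+BAI, 0.0066 in AngII+GAS and 0.13 in AngII+VAL, all against AngII, and 0.039 in AngII against Control. The summed skeletal muscle markers had a median of 1569 FPKM in AngII+VAL and 45.3 in AngII. Their mean log2 levels did not overlap between these groups, so that term cannot be separated from AngII+VAL against AngII. With each library's slope over transcript length as a term, the AngII+BAI median was -0.012, with 18 members positive. Precision was enough to place the 95% interval within 1 unit either way on the log2(FPKM + 1) scale for 29 members in AngII against Control. The same held against AngII for 27 members in AngII+ETH, 30 in AngII+BAI, 28 in AngII+GAS and 31 in AngII+VAL. For genes of low level, 1 unit on that scale is more than a 2-fold change in FPKM.

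**Figure D2:**
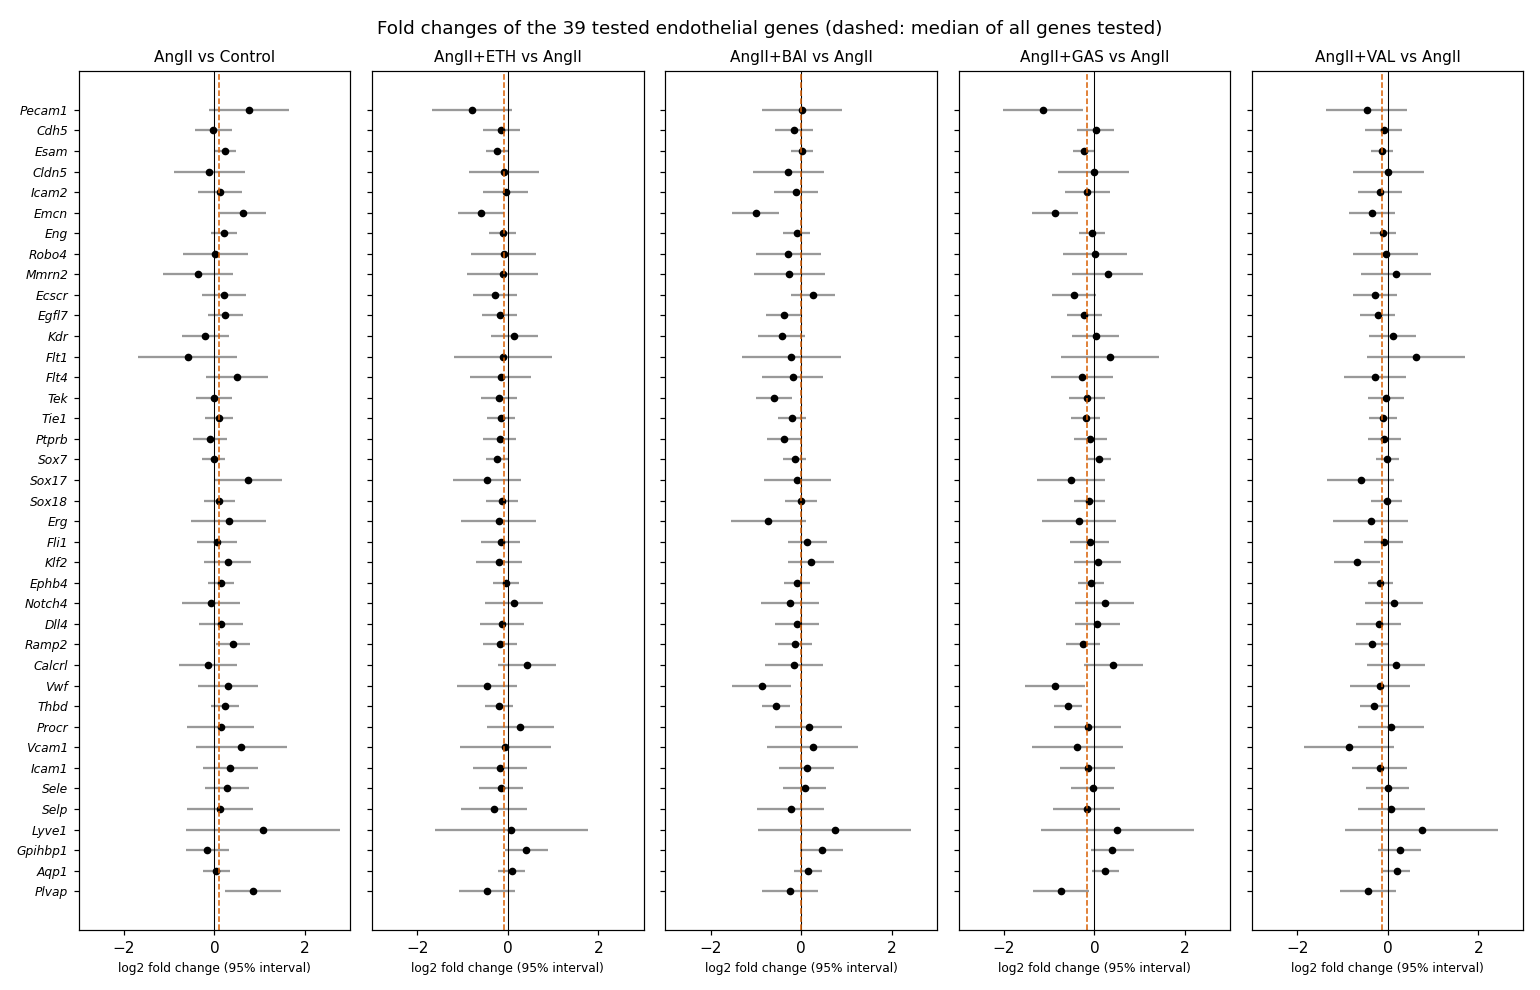
Log2 fold change (point) and 95% interval (line) of the 39 tested members in 5 comparisons, on the log2(FPKM + 1) scale, with the median of all genes tested as a dashed line. None passed the threshold, and the widest intervals are those of Lyve1, while Emcn and Thbd lie left of 0 in AngII+BAI and AngII+GAS against AngII.

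Among the junction and surface proteins, Cdh5 (VE-cadherin), which holds endothelial cells together, was present in every library. It had 32.5, 33.9, 37.6, 41.9 and 45.6 FPKM in AngII+ETH, 17.6, 38.1, 54.3, 35.1 and 58.1 in AngII+BAI, 46.2, 49.7, 47.8, 39.7 and 33.4 in AngII+GAS, and 41.1, 41.2, 40.3, 36.4 and 37.8 in AngII+VAL. The groups without a compound had 40.9, 34.001, 38.6, 51.8 and 47.1 FPKM in AngII and 47.2, 41.98, 40.8, 46.4 and 38.2 in Control. Every group overlapped every other, and library 1 of AngII+BAI was the lowest of all. The log2 fold change was -0.025 (SE 0.20, adjusted p = 0.982) in AngII against Control, with a 95% interval of -0.44 to 0.39.

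Pecam1 (CD31), a junctional adhesion protein, was far less even. With a compound, it had 11.9, 19.8, 43.5, 19.9 and 33.3 FPKM in AngII+ETH, 47.5, 29.7, 45.6, 49.01 and 40.4 in AngII+BAI, 26.3, 4.54, 17.3, 38.4 and 23.2 in AngII+GAS, and 39.5, 30.8, 22.4, 35.7 and 22.9 in AngII+VAL. Without a compound, the values were 40.5, 69.9, 14.9, 29.3 and 93.8 FPKM in AngII and 33.2, 32.3, 16.9, 19.7 and 21.7 in Control. The AngII libraries ran from the third lowest to the highest value of the series. AngII+GAS averaged 21.9 ± 12.4 FPKM, against 49.7 ± 31.9 in AngII, a log2 fold change of -1.13 (SE 0.43, adjusted p = 0.257). Without library 2 of AngII+GAS it was -0.69 (SE 0.39, adjusted p = 0.474). Several transcripts moved with the sum: Pecam1-202, which codes for 716 residues, was listed at 50.1 and 35.3 FPKM in AngII libraries 5 and 2 while AngII libraries 1, 3 and 4 had 0.285 to 0.786 FPKM. Pecam1-207 (626 residues) had 6.64 and 11.2 FPKM in those 2 libraries, and 0.051 to 0.0802 FPKM in AngII 1, 3 and 4. Pecam1-204 (727 residues) ranged over the 30 libraries between 4.01 FPKM, in AngII+GAS 2, and 39.2 FPKM, in AngII 1. Division of reads between these transcripts rests on the authors' quantifier.

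Emcn (endomucin, a surface sialoglycoprotein of capillary and venous endothelium) lies at chr3:137341067-137432185 in mm10. Its libraries had 6.75, 8.15, 6.71, 12.5 and 8.82 FPKM in AngII+ETH, 5.13, 6.31, 5.50, 7.34 and 6.27 in AngII+BAI, 5.91, 12.3, 7.68, 4.18 and 5.95 in AngII+GAS, and 12.2, 5.77, 16.7, 10.5 and 8.71 in AngII+VAL. The libraries given no compound had 10.4, 21.4, 7.90, 14.3 and 15.6 FPKM in AngII and 8.51, 6.93, 8.80, 10.3 and 6.88 in Control. All AngII+BAI libraries lay below all AngII libraries. Means were 6.11 ± 0.855 FPKM in AngII+BAI and 13.9 ± 5.17 in AngII, a log2 fold change of -1.01 (SE 0.25, adjusted p = 0.0681). Leaving out library 3 of AngII, its lowest, gave -1.17 (SE 0.25, adjusted p = 0.03), and leaving out library 1 of AngII+BAI gave -0.95 (SE 0.27, adjusted p = 0.136). Over all genes tested, leaving out 1 library called 0 to 184 in that comparison. The AngII+GAS mean was 7.20 ± 3.09 FPKM, a log2 fold change of -0.87 (SE 0.25, adjusted p = 0.175) against AngII. For AngII+ETH the mean was 8.58 ± 2.36 FPKM and the change -0.60 (SE 0.25, adjusted p = 0.994). For AngII+VAL the mean was 10.8 ± 4.06 FPKM, with overlap. AngII itself was above Control (8.28 ± 1.42 FPKM) by 0.63 (SE 0.25, adjusted p = 0.333). Part of the AngII spread came from the transcript Emcn-201, which was listed at 12.5 FPKM in AngII library 2 while AngII libraries 1, 3, 4 and 5 had 0.933 to 1.74 FPKM.

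The non-overlap of AngII+BAI and AngII held for 3 members, Emcn, Thbd and Vwf, all lower in AngII+BAI, while 1.7% of all genes did not overlap in either direction. In AngII+VAL against Control it held for Sele (higher) and Ptprb (lower), beside 1.61% of all genes. No member met it in AngII against Control (3.55% of all genes), nor against AngII in AngII+ETH (0.499%), AngII+GAS (2.31%) or AngII+VAL (2.96%). The same was so against Control for AngII+ETH (1.99%), AngII+BAI (3.22%), AngII+GAS (1.08%) and all infused groups together (0.0378%).

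The other junction and surface members overlapped in every comparison. Esam, a junctional adhesion molecule, averaged 27.2 ± 3.77 FPKM in AngII+ETH, 32.7 ± 4.27 in AngII+BAI, 27.2 ± 4.54 in AngII+GAS, 29.04 ± 2.35 in AngII+VAL, 31.96 ± 3.66 in AngII and 26.9 ± 1.83 in Control. Its log2 fold change in AngII+ETH against AngII was -0.23 (SE 0.12, adjusted p = 0.994). Cldn5, the claudin of endothelial tight junctions, averaged 21.3 ± 9.99 FPKM in AngII+ETH, 20.2 ± 10.01 in AngII+BAI, 21.3 ± 6.02 in AngII+GAS, 21.1 ± 1.39 in AngII+VAL, 23.2 ± 10.2 in AngII and 23.2 ± 5.69 in Control. The widest spread of Cldn5 came with library 2 of AngII+BAI, at 4.01 FPKM. Icam2, a constitutive leukocyte ligand, averaged 12.3 ± 3.71 FPKM in AngII+ETH, 12.3 ± 5.56 in AngII+BAI, 11.2 ± 2.58 in AngII+GAS, 10.97 ± 2.25 in AngII+VAL, 12.4 ± 2.28 in AngII and 11.2 ± 1.08 in Control. Eng (endoglin), a co-receptor for bone morphogenetic proteins, averaged 42.5 ± 4.88 FPKM in AngII+ETH, 44.2 ± 12.8 in AngII+BAI, 44.4 ± 5.63 in AngII+GAS, 42.5 ± 2.10 in AngII+VAL, 46.2 ± 6.37 in AngII and 39.7 ± 3.06 in Control. Esam and Eng had their lowest mean in Control, and Icam2 in AngII+VAL.

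Robo4, a receptor that steadies endothelial barriers, averaged 3.80 ± 1.43 FPKM in AngII+ETH, 3.89 ± 2.41 in AngII+BAI, 4.15 ± 1.33 in AngII+GAS, 3.89 ± 1.14 in AngII+VAL, 4.04 ± 1.01 in AngII and 3.94 ± 0.818 in Control. Without library 1, where it was listed at 0, the AngII+BAI mean was 4.86 ± 1.21 FPKM (n = 4). Mmrn2, an endothelial matrix glycoprotein, averaged 7.72 ± 2.19 FPKM in AngII+ETH, 7.93 ± 5.26 in AngII+BAI, 10.7 ± 3.19 in AngII+GAS, 10.1 ± 4.24 in AngII+VAL, 9.24 ± 5.43 in AngII and 11.4 ± 3.70 in Control. Its log2 fold change in AngII against Control was -0.36 (SE 0.38, adjusted p = 0.753). Ecscr, a surface protein of endothelial cells, averaged 10.4 ± 2.78 FPKM in AngII+ETH, 16.2 ± 6.43 in AngII+BAI, 9.23 ± 3.08 in AngII+GAS, 10.2 ± 1.40 in AngII+VAL, 12.7 ± 2.51 in AngII and 10.9 ± 2.36 in Control. The high mean in AngII+BAI rested on libraries 3 and 5, at 24.3 and 21.1 FPKM, which were also the libraries with the lowest Myh11, at 69.01 and 155 FPKM. Without them the log2 fold change of Ecscr against AngII was -0.098, in place of 0.26 with all libraries. The mean log2 level of macrophage markers was also highest of the series in libraries 3 and 5 of AngII+BAI, at 7.15 and 6.51. Over the 30 libraries Ecscr had r of 0.69 with the macrophage markers and -0.25 with the smooth muscle markers, and their part was not tested. Egfl7, a secreted factor of endothelial cells, averaged 16.3 ± 2.67 FPKM in AngII+ETH, 14.4 ± 4.85 in AngII+BAI, 15.6 ± 0.584 in AngII+GAS, 15.8 ± 2.67 in AngII+VAL, 18.8 ± 4.84 in AngII and 15.8 ± 3.62 in Control, with a log2 fold change of -0.39 (SE 0.19, adjusted p = 0.34) in AngII+BAI against AngII.

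**Figure D3:**
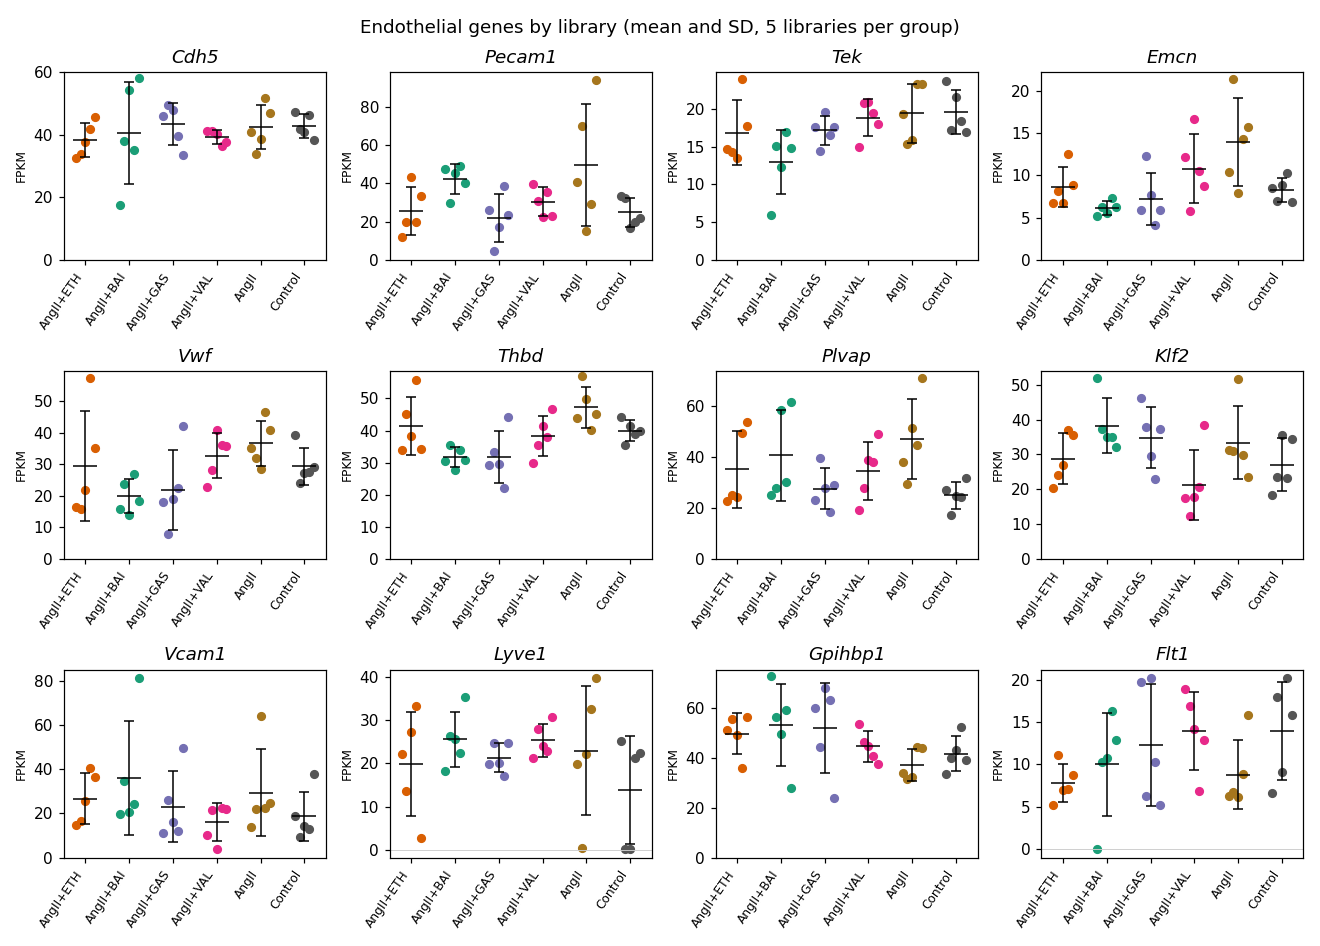
FPKM of 12 of the genes in each library (points), with the mean and SD of the 5 libraries of each group (bars). Emcn, Vwf and Thbd in AngII+BAI lie below every AngII library, and Lyve1 is under 0.4 FPKM in 2 Control libraries and 1 AngII library.

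Of the VEGF receptors, Kdr (VEGFR2), the main signalling receptor, had 17.2, 20.3, 21.4, 15.3 and 32.2 FPKM in AngII+ETH, 6.35, 14.995, 15.3, 17.97 and 16.8 in AngII+BAI, 27.5, 16.9, 22.5, 23.3 and 9.52 in AngII+GAS, and 24.3, 20.9, 23.9, 17.2 and 15.6 in AngII+VAL. AngII and Control libraries gave 17.5, 14.6, 16.3, 26.5 and 19.4 FPKM in AngII and 21.9, 21.5, 20.7, 27.1 and 17.4 in Control. Library 1 of AngII+BAI was the lowest of all. The log2 fold change in AngII+BAI against AngII was -0.43 (SE 0.25, adjusted p = 0.436), and without that library it was -0.18 (SE 0.23, adjusted p = 0.793). AngII against Control gave -0.21 (SE 0.25, adjusted p = 0.794).

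Flt1 (VEGFR1), which binds VEGF and limits its action on Kdr, had 5.14, 11.1, 7.02, 7.03 and 8.74 FPKM in AngII+ETH, 0, 10.2, 10.7, 16.3 and 12.8 in AngII+BAI, 19.7, 6.25, 20.1, 10.3 and 5.17 in AngII+GAS, and 18.9, 16.8, 14.2, 6.81 and 12.9 in AngII+VAL. In the remaining groups the levels were 6.28, 6.76, 6.09, 8.89 and 15.8 FPKM in AngII and 6.65, 17.98, 9.11, 20.2 and 15.8 in Control. Each group held high and low libraries, and AngII overlapped Control. Means were 8.77 ± 4.10 FPKM in AngII and 13.9 ± 5.81 in Control, a log2 fold change of -0.59 (SE 0.53, adjusted p = 0.71). In AngII+VAL the mean was 13.9 ± 4.60 FPKM, a log2 fold change of 0.63 (SE 0.53, adjusted p = 0.694) against AngII.

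The Flt1 sum held 2 transcripts that behaved differently. Flt1-202, which codes for the full receptor of 1333 residues, had 0.661, 0.942, 0.514, 0.9749 and 9.74 FPKM in AngII and 0.642, 9.25, 2.84, 10.5 and 8.15 in Control. Flt1-203, which codes for a shorter product of 688 residues, had 5.62, 5.82, 5.57, 7.92 and 6.10 FPKM in AngII and 6.01, 8.73, 6.27, 9.72 and 7.63 in Control. The long transcript was thus under 1 FPKM in 4 AngII libraries and in 1 Control library, while the short one stayed between 5.57 and 9.72 FPKM in both groups. The transcripts were not tested one by one. Flt4 (VEGFR3), the receptor of lymphatic endothelium, averaged 4.68 ± 2.33 FPKM in AngII+ETH, 5.22 ± 4.25 in AngII+BAI, 3.95 ± 0.736 in AngII+GAS, 3.97 ± 1.04 in AngII+VAL, 5.24 ± 1.91 in AngII and 3.20 ± 0.278 in Control.

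Tek (TIE2), the angiopoietin receptor, lies at chr4:94739289-94874976 in mm10. In the compound groups it had 14.8, 14.3, 13.5, 24.03 and 17.8 FPKM in AngII+ETH, 6.01, 15.1, 12.4, 16.9 and 14.8 in AngII+BAI, 17.6, 14.5, 19.6, 16.5 and 17.6 in AngII+GAS, and 14.9, 20.8, 20.9, 19.5 and 18.02 in AngII+VAL. The groups without a compound had 19.3, 15.3, 15.9, 23.3 and 23.3 FPKM in AngII and 23.7, 17.2, 21.6, 18.5 and 16.9 in Control. Library 1 of AngII+BAI was the lowest of all, and AngII+BAI overlapped AngII. The log2 fold change in AngII+BAI was -0.59 (SE 0.19, adjusted p = 0.159) against AngII and -0.61 (SE 0.19, adjusted p = 0.0957) against Control. Without library 1 of AngII+BAI these were -0.36 (SE 0.16, adjusted p = 0.329) and -0.38 (SE 0.16, adjusted p = 0.213). Tek passed the threshold against Control without library 2 of AngII+BAI (adjusted p = 0.0456) and without library 4 (adjusted p = 0.0392). Without library 2, 954 of the 13223 genes tested passed in that comparison, against 190 with all libraries. Leaving out any 1 library gave 8 to 954 genes. Tie1, the orphan partner of Tek, averaged 18.4 ± 3.90 FPKM in AngII+ETH, 17.9 ± 4.51 in AngII+BAI, 17.5 ± 1.57 in AngII+GAS, 18.8 ± 1.83 in AngII+VAL, 20.4 ± 3.26 in AngII and 18.8 ± 1.64 in Control. Ptprb (VE-PTP), a phosphatase that dampens Tek signalling, averaged 22.5 ± 6.56 FPKM in AngII+ETH, 19.6 ± 5.73 in AngII+BAI, 23.4 ± 2.01 in AngII+GAS, 23.6 ± 1.44 in AngII+VAL, 25.4 ± 5.70 in AngII and 26.99 ± 3.80 in Control. Its log2 fold change in AngII+BAI was -0.38 (SE 0.18, adjusted p = 0.331) against AngII and -0.48 (SE 0.18, adjusted p = 0.144) against Control. The change of Ptprb against Control passed without library 2 of AngII+BAI (adjusted p = 0.0481), the same fit in which 954 genes passed. Without library 1 of AngII+BAI the changes of Ptprb were -0.24 (SE 0.17, adjusted p = 0.59) and -0.34 (SE 0.17, adjusted p = 0.312).

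Tie1 and Tek varied together over the 30 libraries. The 9 relations examined here and below were all chosen after the values were seen, and the adjustment covers those 9 only. Their p-values thus describe the chosen pairs, and no background of r over other gene pairs was computed. For Tie1 and Tek Pearson's r was 0.71 (permutation p = 7e-05, adjusted p = 0.00013) and Spearman's rho 0.55 (permutation p = 0.0019, adjusted p = 0.0022). For the same pair within groups r was 0.76 (permutation p = 0.00046, adjusted p = 0.00059), and without AngII+ETH 3 and AngII+BAI 1 it was 0.46. Without AngII+BAI 1 alone it was 0.52. The RefSeq promoter table (GRCm38.p6) held 22 of the 40 members, in 27 windows that run from 250 bases before to 50 after the start. The motif GGAA, read on both strands and with overlaps, is the core that ETS factors such as Erg and Fli1 bind. It was in 96.3% of the members' windows, and in 96.0% of all 32851 windows of that length. The 250 bases before the RefSeq start of Tie1 (chr4:118489850-118490099, minus strand) and of Tek (chr4:94739039-94739288, plus strand) are shown because these receptors act as a pair. GGAA and its reverse complement TTCC are in capitals. Tie1 holds 7 such matches and Tek 2. The GENCODE M21 gene of Tie1 begins farther upstream (chr4:118471191-118490061), so most of its window lies inside that gene.
Tie1: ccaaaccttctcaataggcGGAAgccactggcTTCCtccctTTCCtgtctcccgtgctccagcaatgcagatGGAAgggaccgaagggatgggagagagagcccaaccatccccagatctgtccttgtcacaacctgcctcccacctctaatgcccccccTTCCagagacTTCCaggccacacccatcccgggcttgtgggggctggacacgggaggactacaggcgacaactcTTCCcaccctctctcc
Tek: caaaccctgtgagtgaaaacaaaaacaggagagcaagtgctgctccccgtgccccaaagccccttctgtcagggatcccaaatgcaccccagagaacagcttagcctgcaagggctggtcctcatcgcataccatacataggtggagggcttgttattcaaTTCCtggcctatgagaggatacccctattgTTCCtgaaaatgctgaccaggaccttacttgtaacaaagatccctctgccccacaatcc

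Of the transcription factors that keep endothelial identity, Sox7 averaged 4.30 ± 0.475 FPKM in AngII+ETH, 4.66 ± 0.713 in AngII+BAI, 5.72 ± 0.791 in AngII+GAS, 5.19 ± 0.881 in AngII+VAL, 5.24 ± 0.757 in AngII and 5.30 ± 0.608 in Control. The log2 fold change of Sox7 in AngII+ETH against AngII was -0.23 (SE 0.12, adjusted p = 0.994). Sox18, which with Sox7 and Sox17 shapes vessel development, averaged 24.3 ± 2.24 FPKM in AngII+ETH, 27.4 ± 7.67 in AngII+BAI, 24.8 ± 5.03 in AngII+GAS, 26.3 ± 4.36 in AngII+VAL, 26.8 ± 4.87 in AngII and 24.7 ± 2.73 in Control. Erg, an ETS factor that maintains junction genes, averaged 6.87 ± 2.45 FPKM in AngII+ETH, 5.91 ± 4.35 in AngII+BAI, 6.24 ± 2.65 in AngII+GAS, 6.03 ± 2.31 in AngII+VAL, 7.81 ± 1.005 in AngII and 6.21 ± 1.51 in Control. Without library 1 of AngII+BAI, where Erg had 0.189 FPKM, its log2 fold change in AngII+BAI against AngII was -0.19 (SE 0.29, adjusted p = 0.842) in place of -0.73 (SE 0.40, adjusted p = 0.401). Fli1, another ETS factor that leukocytes also express, averaged 6.58 ± 0.847 FPKM in AngII+ETH, 9.16 ± 5.14 in AngII+BAI, 6.91 ± 1.31 in AngII+GAS, 6.96 ± 1.30 in AngII+VAL, 7.44 ± 0.999 in AngII and 7.13 ± 0.969 in Control. Its highest values, 16.8 and 12.2 FPKM, came from libraries 3 and 5 of AngII+BAI, and the macrophage marker sum was highest, 2804 FPKM, in library 3 of AngII+BAI. The part of macrophages in these values was not tested.

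Sox17, the arterial member of the SOX trio, had 1.75, 1.23, 1.22, 4.38 and 6.17 FPKM in AngII+ETH, 4.53, 5.97, 3.38, 3.72 and 1.44 in AngII+BAI, 1.61, 0.85, 3.95, 3.44 and 3.05 in AngII+GAS, and 1.77, 2.15, 1.35, 1.48 and 5.34 in AngII+VAL. Without a compound, the values were 5.17, 3.28, 1.78, 4.13 and 5.87 FPKM in AngII and 1.22, 1.54, 1.94, 3.97 and 1.39 in Control. AngII was higher in mean but overlapped Control, with a log2 fold change of 0.74 (SE 0.36, adjusted p = 0.447). Its sum also moved with isoforms, since Sox17-201 was listed between 0 and 4.56 FPKM.

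Klf2, a factor that laminar blood flow induces, had 20.4, 24.02, 27.1, 36.98 and 35.4 FPKM in AngII+ETH, 51.99, 37.3, 34.9, 34.8 and 32.01 in AngII+BAI, 46.3, 37.8, 29.7, 23.004 and 37.3 in AngII+GAS, and 17.3, 12.3, 17.6, 20.5 and 38.3 in AngII+VAL. The libraries given no compound had 31.2, 31.04, 51.5, 29.7 and 23.5 FPKM in AngII and 18.4, 23.6, 35.4, 23.2 and 34.5 in Control. In AngII+VAL, 4 libraries were below every AngII library, and library 5 was not. Means were 21.2 ± 9.998 FPKM in AngII+VAL and 33.4 ± 10.6 in AngII, a log2 fold change of -0.68 (SE 0.25, adjusted p = 0.31). AngII against Control gave 0.29 (SE 0.25, adjusted p = 0.697).

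Prox1 was listed at 0 in 21 libraries, all 5 Control libraries included. Its values were 0, 0.454, 0, 0.819 and 0 FPKM in AngII+ETH, 0, 0, 1.01, 0 and 0 in AngII+BAI, 0, 0.98, 0, 0 and 0 in AngII+GAS, 0, 0, 0, 0 and 0.973 in AngII+VAL, 1.25, 1.28, 0, 0.00807 and 0.0581 in AngII and 0, 0, 0, 0 and 0 in Control.

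Of the Notch and ephrin members, Dll4, the Notch ligand of arterial and tip cells, had 2.21, 2.57, 2.67, 2.40 and 1.86 FPKM in AngII+ETH, 1.38, 1.97, 2.92, 2.24 and 3.94 in AngII+BAI, 3.21, 2.39, 2.89, 3.67 and 2.04 in AngII+GAS, and 3.04, 2.52, 3.74, 2.58 and 0.274 in AngII+VAL. AngII and Control libraries gave 2.66, 2.93, 2.18, 2.43 and 2.98 FPKM in AngII and 1.75, 2.80, 2.27, 2.59 and 2.09 in Control. All groups overlapped, and the AngII against Control change was 0.14 (SE 0.24, adjusted p = 0.857). Notch4, a Notch receptor of endothelium, averaged 4.82 ± 0.638 FPKM in AngII+ETH, 4.39 ± 2.49 in AngII+BAI, 5.21 ± 0.564 in AngII+GAS, 4.82 ± 0.215 in AngII+VAL, 4.33 ± 0.71 in AngII and 4.58 ± 0.5 in Control. Its AngII+BAI mean was 5.48 ± 0.526 FPKM (n = 4) without library 1, which was listed at 0. Ephb4, the venous ephrin receptor, averaged 14.4 ± 2.41 FPKM in AngII+ETH, 14.1 ± 3.60 in AngII+BAI, 13.9 ± 1.33 in AngII+GAS, 13.2 ± 1.71 in AngII+VAL, 14.9 ± 1.93 in AngII and 13.2 ± 0.946 in Control, and its libraries ranged only from 9.91 to 18.3 FPKM.

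The adrenomedullin receptor is built from Calcrl and its partner Ramp2. Calcrl had 6.50, 0.723, 0.73, 0.881 and 0.808 FPKM in AngII+ETH, 0, 0.682, 0.498, 1.23 and 0.808 in AngII+BAI, 2.21, 3.47, 0.776, 0.575 and 0.832 in AngII+GAS, and 0.809, 1.17, 0.944, 0.831 and 1.33 in AngII+VAL. In the remaining groups the levels were 0.811, 0.545, 0.94, 0.969 and 0.628 FPKM in AngII and 0.511, 0.911, 1.15, 1.07 and 1.22 in Control. Library 1 of AngII+ETH and libraries 1 and 2 of AngII+GAS stood above the rest. The change in AngII+ETH against AngII was 0.43 (SE 0.32, adjusted p = 0.994), and without library 1 of AngII+ETH it was 0.011 (SE 0.24, adjusted p = 0.9997). The change in AngII+GAS was 0.42 (SE 0.32, adjusted p = 0.547), and without library 2 of AngII+GAS it was 0.19 (SE 0.31, adjusted p = 0.822). Ramp2 averaged 51.4 ± 7.76 FPKM in AngII+ETH, 53.95 ± 13.4 in AngII+BAI, 48.96 ± 8.98 in AngII+GAS, 45.2 ± 6.34 in AngII+VAL, 59.5 ± 16.7 in AngII and 43.9 ± 7.83 in Control. Its log2 fold change was 0.41 (SE 0.18, adjusted p = 0.4) in AngII against Control and -0.36 (SE 0.18, adjusted p = 0.484) in AngII+VAL against AngII. With neuron and skeletal muscle levels as terms in the fit, the second became 0.19 (SE 0.24, adjusted p = 1.00), and the first ranged from 0.068 to 0.50 over 24 alternatives. Skeletal muscle levels did not overlap between AngII+VAL and AngII, so that term cannot be separated from AngII+VAL against AngII.

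Of the members that control haemostasis, Thbd and Vwf had their lowest means in AngII+BAI and AngII+GAS. Thbd (thrombomodulin), which turns thrombin to the activation of protein C, lies at chr2:148404466-148408188 in mm10. It had 33.8, 45.1, 38.4, 55.6 and 34.1 FPKM in AngII+ETH, 30.4, 35.5, 27.5, 33.9 and 30.9 in AngII+BAI, 29.2, 33.4, 29.7, 22.2 and 44.1 in AngII+GAS, and 29.9, 35.6, 41.3, 38.04 and 46.8 in AngII+VAL. The groups without a compound had 43.98, 56.9, 49.7, 40.04 and 45.3 FPKM in AngII and 44.3, 35.4, 41.5, 38.9 and 39.7 in Control. All AngII+BAI libraries and 4 of the 5 AngII+GAS libraries lay below every AngII library. Means were 31.7 ± 3.12 FPKM in AngII+BAI, 31.7 ± 8.03 in AngII+GAS and 47.2 ± 6.45 in AngII. The log2 fold change was -0.56 (SE 0.15, adjusted p = 0.101) in AngII+BAI and -0.58 (SE 0.15, adjusted p = 0.168) in AngII+GAS, both against AngII. Array weights, which count a more variable library less, moved the AngII+GAS value past the threshold (log2 fold change -0.68, SE 0.14, adjusted p = 0.0348). This was the only 1 of 24 alternatives to do so. Over them the limma change of Thbd in AngII+GAS ran from -0.71 to -0.42, with adjusted p of 0.0348 to 0.793. In AngII+VAL the change was -0.30 (SE 0.15, adjusted p = 0.485), in AngII+ETH -0.20 (SE 0.15, adjusted p = 0.994), and in AngII against Control 0.23 (SE 0.15, adjusted p = 0.605).

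Vwf (von Willebrand factor), the carrier of factor VIII that tethers platelets, lies at chr6:125546774-125686679 in mm10. With a compound, it had 16.4, 15.7, 21.8, 57.1 and 35.2 FPKM in AngII+ETH, 15.8, 23.7, 13.96, 26.95 and 18.4 in AngII+BAI, 17.9, 7.69, 19.1, 22.3 and 42.2 in AngII+GAS, and 22.8, 28.1, 40.9, 35.9 and 35.8 in AngII+VAL. Without a compound, the values were 35.1, 31.97, 28.5, 46.4 and 40.9 FPKM in AngII and 39.3, 23.8, 27.3, 27.4 and 28.97 in Control. All AngII+BAI libraries were below all AngII libraries, and AngII+GAS overlapped it through library 5. Means were 19.8 ± 5.44 FPKM in AngII+BAI, 21.8 ± 12.6 in AngII+GAS and 36.6 ± 7.14 in AngII. The log2 fold change was -0.87 (SE 0.32, adjusted p = 0.207) in AngII+BAI, and without its library 1 it was -0.81 (SE 0.34, adjusted p = 0.317). In AngII+GAS it was -0.88 (SE 0.32, adjusted p = 0.25), and without its library 2 it was -0.58 (SE 0.30, adjusted p = 0.437). Smooth muscle markers moved with both genes: the mean log2 level of that list had r of 0.58 with Thbd and 0.51 with Vwf over the 30 libraries. That level averaged 6.97 ± 0.86 in AngII+BAI, 7.29 ± 0.45 in AngII+GAS and 7.55 ± 0.097 in AngII, and its part was not tested. The low AngII+BAI mean rested on libraries 3 and 5, at 5.92 and 6.19. Libraries 1, 2 and 4 of AngII+BAI had 7.81, 7.59 and 7.34, and the AngII libraries 7.42 to 7.68. Procr, the receptor of activated protein C, had 9.88, 7.53, 10.7, 13.5 and 10.3 FPKM in AngII+ETH, 4.19, 8.77, 11.02, 11.8 and 14.7 in AngII+BAI, 9.57, 2.63, 10.2, 9.32 and 8.39 in AngII+GAS, and 7.85, 12.5, 10.9, 11.1 and 4.12 in AngII+VAL. The libraries given no compound had 4.21, 11.9, 17.03, 6.50 and 6.61 FPKM in AngII and 11.1, 7.57, 10.2, 7.52 and 3.34 in Control. No group of Procr stood apart, and the change in AngII against Control was 0.14 (SE 0.36, adjusted p = 0.922). In AngII+ETH against AngII the Procr change was 0.27 (SE 0.36, adjusted p = 0.994).

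Leukocyte adhesion molecules, which activated endothelium displays, had higher means in AngII than in Control for all 4 members, with overlap in each, and Selp changed sign under quantile normalization. Without library 3 of AngII the changes were 0.28 (SE 0.49, adjusted p = 0.934) for Vcam1, 0.19 (SE 0.30, adjusted p = 0.926) for Icam1, 0.073 (SE 0.22, adjusted p = 0.971) for Sele and -0.0054 (SE 0.38, adjusted p = 0.99796) for Selp. That library also had the highest mean log2 level of the fibroblast list (7.62) and of the macrophage list (5.86) among AngII libraries, and their part was not tested. Vcam1, the ligand of integrin alpha 4, had 14.6, 16.4, 25.7, 40.5 and 36.8 FPKM in AngII+ETH, 19.6, 34.7, 20.8, 24.5 and 81.5 in AngII+BAI, 10.96, 26.1, 16.2, 11.9 and 49.8 in AngII+GAS, and 10.2, 21.8, 4.05, 22.6 and 22.1 in AngII+VAL. AngII and Control libraries gave 13.97, 22.1, 64.1, 22.4 and 24.9 FPKM in AngII and 19.1, 9.33, 14.5, 12.9 and 37.8 in Control. Single libraries reached far above their group, as AngII library 3 and AngII+BAI library 5 did. The change was 0.60 (SE 0.49, adjusted p = 0.682) in AngII against Control and -0.86 (SE 0.49, adjusted p = 0.543) in AngII+VAL against AngII. AngII+VAL library 3 was the lowest of all, and without it the second change was -0.47 (SE 0.48, adjusted p = 0.827).

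Icam1, the ligand of beta 2 integrins, had 7.43, 8.18, 8.45, 16.9 and 13.02 FPKM in AngII+ETH, 9.55, 18.2, 16.2, 8.02 and 15.4 in AngII+BAI, 8.39, 12.2, 6.79, 6.68 and 25.5 in AngII+GAS, and 6.08, 12.6, 10.3, 10.7 and 13.1 in AngII+VAL. In the remaining groups the levels were 8.47, 10.1, 18.9, 11.1 and 12.3 FPKM in AngII and 10.7, 7.70, 9.59, 7.45 and 9.97 in Control. The change in AngII against Control was 0.35 (SE 0.29, adjusted p = 0.691). Sele (E-selectin), which slows leukocytes and is made on cytokine stimulation, stood at a low level. In the compound groups it had 0.31, 0.376, 0.475, 0.669 and 0.613 FPKM in AngII+ETH, 0.113, 1.41, 0.885, 0.34 and 1.37 in AngII+BAI, 0.226, 0.446, 0.438, 0.401 and 2.0001 in AngII+GAS, and 0.49, 0.707, 1.07, 0.53 and 0.508 in AngII+VAL. The groups without a compound had 0.266, 0.722, 1.88, 0.351 and 0.447 FPKM in AngII and 0.419, 0.199, 0.385, 0.362 and 0.48 in Control. AngII+VAL was above Control in every library, with means of 0.662 ± 0.246 and 0.369 ± 0.105 FPKM. In AngII the mean was 0.734 ± 0.665 FPKM. The change in AngII against Control was 0.27 (SE 0.23, adjusted p = 0.694). Selp (P-selectin), stored in endothelial granules and in platelets, had 2.44, 1.72, 3.90, 8.38 and 3.30 FPKM in AngII+ETH, 0.867, 4.41, 7.48, 4.02 and 4.48 in AngII+BAI, 1.56, 5.98, 2.69, 4.11 and 7.51 in AngII+GAS, and 2.90, 6.31, 7.62, 4.95 and 3.73 in AngII+VAL. Without a compound, the values were 4.25, 4.12, 6.91, 3.87 and 4.05 FPKM in AngII and 6.97, 3.53, 4.44, 3.002 and 3.34 in Control, with a change of 0.12 (SE 0.36, adjusted p = 0.932).

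Most pairs of these 4 genes were high in the same libraries. For Icam1 and Sele Pearson's r was 0.79 (permutation p = 1e-05, adjusted p = 9e-05) and Spearman's rho 0.72 (permutation p = 3e-05, adjusted p = 6.7e-05), where 1e-05 is the smallest p that 100000 permutations can give. For that pair within groups r was 0.78 (permutation p = 0.00017, adjusted p = 0.00038), and without AngII 3 and AngII+GAS 5 it was 0.67. For Vcam1 and Icam1 Pearson's r was 0.71 (permutation p = 3e-05, adjusted p = 0.00011) and Spearman's rho 0.73 (permutation p = 2e-05, adjusted p = 6e-05). For that pair within groups r was 0.70 (permutation p = 0.0001, adjusted p = 0.00038), and without AngII+BAI 5 and AngII+VAL 3 it was 0.82. For Sele and Selp r was 0.62 (permutation p = 0.00033, adjusted p = 0.00049) and rho 0.65 (permutation p = 0.00014, adjusted p = 0.00021). For Icam1 and Selp r was 0.60 (permutation p = 0.00049, adjusted p = 0.00063) and rho 0.67 (permutation p = 0.00011, adjusted p = 0.0002). For Vcam1 and Sele r was 0.55 (permutation p = 0.0012, adjusted p = 0.0014) and rho 0.57 (permutation p = 0.0013, adjusted p = 0.0016). Vcam1 and Selp gave the weakest relation, with r of 0.27 (permutation p = 0.16, adjusted p = 0.16). Leaving out the 2 libraries farthest from the median gave 0.56 for Sele and Selp, 0.53 for Icam1 and Selp, 0.74 for Vcam1 and Sele and 0.50 for Vcam1 and Selp. Levels of fibroblast markers moved with them: the mean log2 level of that list had r of 0.77 with Vcam1, 0.59 with Icam1 and 0.54 with Sele over the 30 libraries, and the macrophage list 0.51, 0.64 and 0.50, and their part was not tested.

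The 250 bases before the starts of Icam1 (chr9:21015690-21015939, plus strand) and Sele (chr1:164047984-164048233, plus strand) are shown because this pair had the highest Pearson's r of the 4 genes over the 30 libraries. Capitals again mark GGAA and TTCC, with 7 matches in Icam1 and 3 in Sele.
Icam1: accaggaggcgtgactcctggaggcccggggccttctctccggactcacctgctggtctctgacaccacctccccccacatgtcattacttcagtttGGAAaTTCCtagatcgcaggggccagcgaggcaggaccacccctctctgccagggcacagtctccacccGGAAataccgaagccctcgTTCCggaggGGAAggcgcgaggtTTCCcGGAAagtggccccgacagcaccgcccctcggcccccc
Sele: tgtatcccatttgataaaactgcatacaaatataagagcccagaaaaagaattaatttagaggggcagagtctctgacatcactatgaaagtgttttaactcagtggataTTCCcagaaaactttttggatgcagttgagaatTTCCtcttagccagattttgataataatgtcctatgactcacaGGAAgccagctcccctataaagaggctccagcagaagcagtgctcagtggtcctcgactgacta
ACAAT and CACCC were also searched in those windows, on both strands and with overlaps. ACAAT, a SOX core, was in 22.2% of the members' windows and 31.02% of all windows. CACCC, a KLF core, was in 81.5% of the members' windows and 57.5% of all windows.

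Markers of capillary and lymphatic endothelium made up the last group. Plvap, which forms the diaphragms of fenestrae and caveolae, lies at chr8:71497765-71511752 in mm10. It had 22.6, 25.04, 24.3, 49.2 and 53.7 FPKM in AngII+ETH, 24.8, 27.6, 58.3, 29.98 and 61.5 in AngII+BAI, 22.97, 39.4, 27.7, 18.3 and 29.04 in AngII+GAS, and 19.03, 27.7, 38.8, 37.9 and 48.9 in AngII+VAL. The libraries given no compound had 37.9, 29.4, 51.4, 44.7 and 70.95 FPKM in AngII and 27.1, 17.02, 24.5, 24.2 and 31.5 in Control. In AngII, 4 libraries were above every Control library, and library 2 was not. Means were 46.9 ± 15.7 FPKM in AngII and 24.9 ± 5.27 in Control, a log2 fold change of 0.85 (SE 0.30, adjusted p = 0.284), the smallest p of any member in that comparison. Without library 5 of AngII it was 0.69 (SE 0.31, adjusted p = 0.725). With neuron and skeletal muscle levels as terms it was 0.31 (SE 0.32, adjusted p = 0.99796). Over the 30 libraries Plvap had r of 0.81 with the lymphatic list, 0.75 with the Schwann cell list, 0.63 with the fibroblast and macrophage lists and 0.59 with the neuron list. The Schwann cell level averaged 3.42 ± 1.03 in AngII and 2.26 ± 0.20 in Control (mean log2), and the neuron level 3.21 ± 2.45 in AngII and 0.83 ± 0.77 in Control. The part of Schwann cells, fibroblasts and macrophages was not tested. AngII+GAS averaged 27.5 ± 7.87 FPKM, a change of -0.73 (SE 0.30, adjusted p = 0.282) against AngII, and -0.26 (SE 0.31, adjusted p = 0.91) with those terms.

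Gpihbp1, which holds lipoprotein lipase on capillary endothelium, had 51.2, 55.5, 48.9, 35.7 and 56.3 FPKM in AngII+ETH, 72.8, 56.2, 49.3, 58.9 and 27.7 in AngII+BAI, 59.9, 44.1, 67.6, 63.02 and 23.7 in AngII+GAS, and 53.4, 46.2, 44.6, 40.6 and 37.3 in AngII+VAL. AngII and Control libraries gave 33.7, 31.3, 32.4, 44.1 and 43.8 FPKM in AngII and 33.4, 39.97, 43.1, 52.1 and 39.2 in Control. Its mean was higher in each compound group than in AngII, with changes of 0.41 in AngII+ETH, 0.45 in AngII+BAI, 0.40 in AngII+GAS and 0.26 in AngII+VAL (SE 0.23, adjusted p = 0.369 to 0.994). For Gpihbp1 and Ucp1, the uncoupling protein of brown fat, Pearson's r was 0.67 (permutation p = 5e-05, adjusted p = 0.00011) and Spearman's rho 0.78 (permutation p = 2e-05, adjusted p = 6e-05). For that pair within groups r was 0.65 (permutation p = 0.00028, adjusted p = 0.0005), and without AngII+BAI 1 and AngII+GAS 5 it was 0.67. For Plvap and Ucp1 Pearson's r was -0.69 (permutation p = 4e-05, adjusted p = 0.00011) and Spearman's rho -0.73 (permutation p = 2e-05, adjusted p = 6e-05). For that pair within groups r was -0.69 (permutation p = 0.00017, adjusted p = 0.00038), and without AngII+BAI 5 and AngII 5 it was -0.57. The summed brown adipocyte level had group medians of 2860 FPKM in AngII+ETH, 3243 in AngII+BAI, 3700 in AngII+GAS, 2384 in AngII+VAL, 1827 in AngII and 2720 in Control. The part of brown fat in the Gpihbp1 and Plvap values was not tested.

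**Figure D4:**
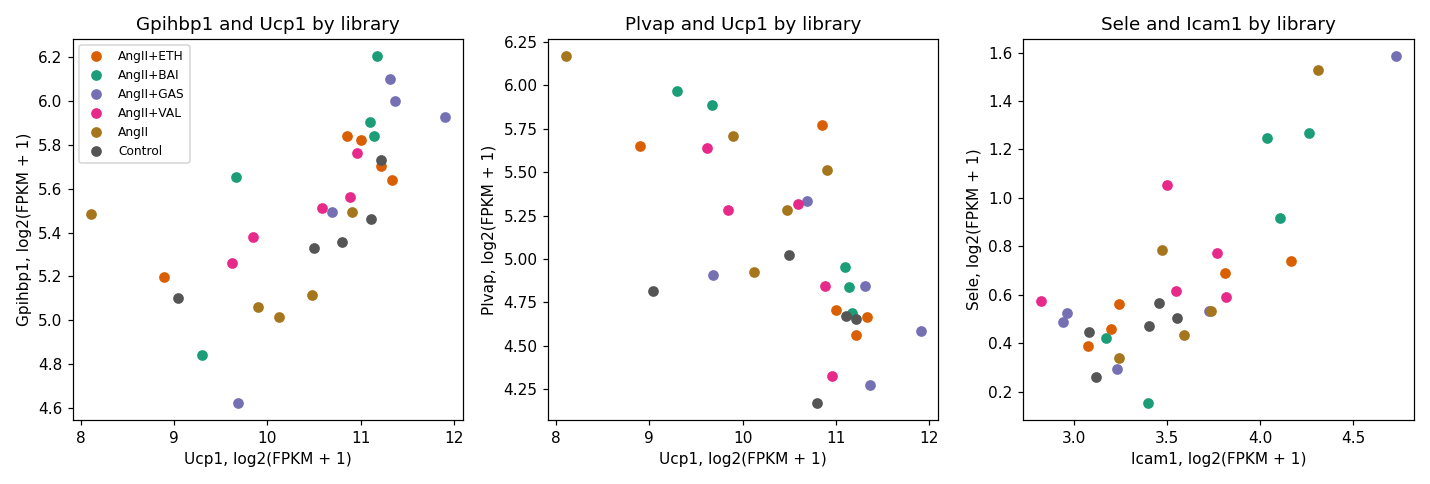
Log2(FPKM + 1) of Gpihbp1 (left) and Plvap (middle) against Ucp1, and of Sele against Icam1 (right), with 1 point per library coloured by group. Gpihbp1 is higher and Plvap lower in libraries with more Ucp1 (r = 0.67 and -0.69), and Sele is higher where Icam1 is (r = 0.79).

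Aqp1 averaged 138 ± 15.4 FPKM in AngII+ETH, 147 ± 32.6 in AngII+BAI, 155 ± 25.4 in AngII+GAS, 149 ± 17.3 in AngII+VAL, 129.9 ± 14.6 in AngII and 127 ± 15.5 in Control, with a change of 0.24 (SE 0.15, adjusted p = 0.454) in AngII+GAS against AngII. Against AngII, Aqp1 also changed by 0.15 (SE 0.15, adjusted p = 0.637) in AngII+BAI and 0.19 (SE 0.15, adjusted p = 0.651) in AngII+VAL. Lyve1, the hyaluronan receptor of lymphatic endothelium that some macrophages also carry, had 22.1, 13.6, 27.2, 33.3 and 2.67 FPKM in AngII+ETH, 18.2, 26.2, 25.6, 22.4 and 35.4 in AngII+BAI, 19.8, 24.8, 20.1, 17.01 and 24.8 in AngII+GAS, and 21.2, 27.9, 23.9, 22.9 and 30.6 in AngII+VAL. In the remaining groups the levels were 19.9, 0.37, 22.1, 32.6 and 39.7 FPKM in AngII and 25.1, 0.279, 0.248, 21.2 and 22.4 in Control. Control libraries 2 and 3 and AngII library 2 were under 0.4 FPKM, AngII+ETH library 5 had 2.67, and every other library had at least 13.6 FPKM. The single Lyve1 transcript was listed in every file. Another lymphatic gene, Mmrn1, was not at 0 in those libraries, with 2.10 FPKM in AngII 2 and 5.52 and 6.38 FPKM in Control 2 and 3. Flt4 had 2.08 FPKM in AngII 2, against 5.05 to 7.09 in the other AngII libraries. It had 3.003 and 3.14 FPKM in Control 2 and 3, against 2.91 to 3.60 in the other Control libraries. The mean log2 level of the lymphatic list, Lyve1 included, was lowest of the series in AngII 2 (1.55), Control 3 (2.01) and Control 2 (2.25). Lyve1 is 1 of the 7 identifiers averaged, so its low values there pull that mean down. The list was not averaged without Lyve1, so its level says nothing separate about the other lymphatic genes. The Lyve1 change in AngII against Control was 1.08 (SE 0.83, adjusted p = 0.657). Of the lymphatic marker list, Lyve1 and Flt4 included, 7 gene identifiers were tested, and in AngII against Control all 7 had a positive change (6 after quantile normalization) with a median of 0.64, beside 0.11 over all genes, and 0 were called. The list's 7 symbols lay on 8 identifiers, and Prox1 was not tested, so these 7 identifiers stand for fewer than 7 symbols.

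Other endothelial genes, a list of 30 with 29 tested, gave 0 calls in all 10 comparisons. In AngII against Control 18 were positive (15 and 13 after the 2 scalings), with a median of 0.098, beside 0.11 over all genes, and 2 of 29 had an unadjusted p under 0.05, beside 11.2% of all genes. Gja4, the connexin of arterial endothelium, averaged 17.6 ± 4.61 FPKM in AngII and 10.4 ± 1.56 FPKM in Control, a log2 fold change of 0.69 (SE 0.25, adjusted p = 0.292). Tm4sf1, a tetraspanin-like protein of endothelial cells, averaged 69.7 ± 21.7 FPKM in AngII+VAL and 191 ± 88.96 FPKM in AngII, a log2 fold change of -1.35 (SE 0.43, adjusted p = 0.24). Tm4sf1 also averaged 79.5 ± 38.8 FPKM in AngII+GAS and 191 ± 88.96 FPKM in AngII, a log2 fold change of -1.21 (SE 0.43, adjusted p = 0.24). Bmx, a kinase of arterial endothelium, averaged 2.79 ± 0.987 FPKM in AngII+BAI and 4.86 ± 1.01 FPKM in AngII, a log2 fold change of -0.65 (SE 0.21, adjusted p = 0.156). Nostrin, which binds endothelial nitric oxide synthase, averaged 3.05 ± 0.496 FPKM in AngII+BAI and 1.83 ± 0.281 FPKM in AngII, a log2 fold change of 0.52 (SE 0.17, adjusted p = 0.161), and S1pr1, the sphingosine phosphate receptor, averaged 34.002 ± 6.04 FPKM in AngII+BAI and 25.7 ± 3.28 FPKM in AngII, a log2 fold change of 0.38 (SE 0.13, adjusted p = 0.175). Nos3, that synthase, averaged 1.64 ± 0.387 FPKM in AngII+VAL and 2.82 ± 0.46 FPKM in AngII, a log2 fold change of -0.53 (SE 0.33, adjusted p = 0.571). Edn1, the precursor of endothelin, averaged 5.47 ± 2.56 FPKM in AngII+ETH and 7.46 ± 2.05 FPKM in AngII, a log2 fold change of -0.43 (SE 0.29, adjusted p = 0.994).

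Ligands, targets and partners of the receptors, a list of 34 with 30 tested, also gave 0 calls in all 10 comparisons. In AngII against Control 22 were positive (20 and 17 after the 2 scalings), with a median of 0.19, beside 0.11 over all genes, and 7 of 30 had an unadjusted p under 0.05, beside 11.2% of all genes. Pgf, the placental growth factor that binds Flt1, averaged 4.69 ± 3.20 FPKM in AngII and 1.51 ± 0.772 FPKM in Control, a log2 fold change of 1.04 (SE 0.41, adjusted p = 0.328). Angpt4, an angiopoietin, averaged 6.83 ± 4.25 FPKM in AngII and 2.95 ± 1.86 FPKM in Control, a log2 fold change of 0.93 (SE 0.36, adjusted p = 0.313). Hey1, a target of Notch signalling, averaged 3.43 ± 1.10 FPKM in AngII and 2.26 ± 0.208 FPKM in Control, a log2 fold change of 0.41 (SE 0.15, adjusted p = 0.287). In AngII+BAI against AngII, 24 of the 30 were negative (25 and 20 after the 2 scalings), with a median of -0.20, beside -0.011 over all genes, and 8 of 30 had an unadjusted p under 0.05, beside 14.6% of all genes. Efnb2, the arterial ligand of Ephb4, averaged 9.85 ± 2.14 FPKM in AngII+BAI and 16.1 ± 0.821 FPKM in AngII, a log2 fold change of -0.68 (SE 0.17, adjusted p = 0.0759). Hey2 and Heyl, Notch targets of the artery wall, followed. Hey2 averaged 7.40 ± 3.69 FPKM in AngII+BAI and 12.7 ± 2.25 FPKM in AngII, a log2 fold change of -0.81 (SE 0.25, adjusted p = 0.14). Heyl averaged 15.3 ± 7.64 FPKM in AngII+BAI and 24.97 ± 4.55 FPKM in AngII, a log2 fold change of -0.80 (SE 0.26, adjusted p = 0.156). Adm, the adrenomedullin that Calcrl and Ramp2 bind, averaged 5.46 ± 1.38 FPKM in AngII+VAL and 9.22 ± 1.96 FPKM in AngII, a log2 fold change of -0.67 (SE 0.25, adjusted p = 0.318). Dll1, another Notch ligand, averaged 1.95 ± 0.573 FPKM in AngII+VAL and 3.47 ± 0.797 FPKM in AngII, a log2 fold change of -0.60 (SE 0.21, adjusted p = 0.284), and Jag1, a further one, averaged 6.99 ± 1.88 FPKM in AngII+ETH and 10.02 ± 1.95 FPKM in AngII, a log2 fold change of -0.48 (SE 0.16, adjusted p = 0.994).

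The members were also set against a core level, the mean log2(FPKM + 1) of 12 of them (Pecam1, Cdh5, Tie1, Tek, Erg, Esam, Egfl7, Robo4, Mmrn2, Icam2, Ecscr and Emcn). The core level averaged 3.82 ± 0.22 in AngII+ETH, 3.78 ± 0.30 in AngII+BAI, 3.78 ± 0.17 in AngII+GAS, 3.90 ± 0.081 in AngII+VAL, 4.07 ± 0.19 in AngII and 3.88 ± 0.080 in Control. Without library 1 the AngII+BAI level was 3.90 ± 0.14 (n = 4). With that level as a term in the fit, 0 of the remaining members were called in any of the 10 comparisons. As a description over 30 libraries, Tie1 followed the rest of the core most closely (r = 0.77), then Vwf (0.70), Tek (0.64) and Ptprb (0.60). This order rested on library 1 of AngII+BAI: without it Vwf had r of 0.70, Esam 0.68 (0.32 with it), Tie1 0.66, Sox17 0.55, Plvap 0.53, Tek 0.48 and Ptprb 0.45, and Notch4 had -0.048 (0.50 with it). Gpihbp1 had r of -0.38, Calcrl -0.22 and Klf2 -0.21, and without that library Gpihbp1 had -0.24, Calcrl -0.53 and Klf2 -0.038. Over all genes tested the median r was 0.11 and the 95th percentile 0.53, and without that library they were 0.17 and 0.51. With all 30 libraries, the other core genes had r of 0.46 (Cdh5), 0.36 (Erg), 0.35 (Robo4), 0.32 (Esam) and 0.26 (Emcn). Pecam1 had 0.17, Ecscr 0.16, Mmrn2 0.15, Icam2 0.047 and Egfl7 -0.022. Without library 1 of AngII+BAI, Pecam1 had 0.40, Icam2 0.36, Ecscr 0.35, Egfl7 0.19, Robo4 0.048 and Mmrn2 0.016. The core level is thus a mean of genes that did not all vary together. The 10 other genes most like the core were Rdx (r = 0.78), Acvr2a (0.78), Abhd3 (0.77), Ambra1 (0.77), Laptm4b (0.76), Rbm5 (0.75), Card10 (0.75), Gsk3b (0.74), Ap3d1 (0.74) and Gpd1l (0.74). Without library 1 of AngII+BAI, Rdx and Acvr2a stayed among the 10, at 0.73 and 0.69.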

How the data were processed

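The authors deposited FPKM values per transcript, 1 file per library. No header states the unit, which was judged from the values. The submitters' processing notes name the build mm10 and limma. An aligner and a quantifier are not given in the sources used here. Per the labels' protocols the library kit followed depletion of ribosomal RNA. Of 33677 Ensembl transcripts, 33638 matched GENCODE M21, and the 27797 listed in every file were summed to 14379 genes. Of low values, 98.7% to 99.7% were within 0.1 read of a whole number, and they gave the depth. Per transcript, sums rest on how the quantifier shared reads between isoforms.

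Genes that reached 1 FPKM in 5 or more of the 30 libraries were fitted as log2(FPKM + 1), with a pseudocount of 1, with limma 3.58.1 in R 4.3.3 (eBayes with trend and robust, 24 residual and 2.58 prior degrees of freedom, 1 mean per group). Two-sided p-values were adjusted by Benjamini-Hochberg over all 13223 genes of a comparison. Fold changes understate the change of low genes. On simulated data for the AngII and Control libraries, with 100 genes per size altered among 13223, the model recovered 50% of changes of 1 log2 unit and 90% of changes of 2 log2 units, with 7 false calls. The simulated noise was normal and independent between genes, with no shift shared by the genes of a library. These rates may thus not hold for the real libraries. Correlations used log2(FPKM + 1) and two-sided permutation tests (100000 permutations, adjusted over 9 relations, group-centred values within groups), in Python 3.11.15 with scipy 1.17.1, numpy 2.4.6 and pandas 2.3.3; matplotlib 3.10.9 drew the plots. Promoter sequences came from RefSeq (GRCm38.p6).

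The members and lists were chosen with earlier results of these data known. Members are given by library or by mean ± SD (n = 5); fold changes are named for the 3 members per direction with the smallest p in each main comparison and for members the text describes. Alternatives were other pseudocounts, filters, scalings, variance models, transcript sets, covariates and left-out libraries. Replicate numbers follow accession order and pair nothing.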

Additional observations from a re-analysis of the deposited data

Results flagged for a closer look

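Single libraries lay far from the other 4 of their group in 20 of 239 sets of 5 values, over 13 members. The rule was a gap to the next value of over 0.71 of the range (Dixon's ratio). It flags about 1 set in 20 of normal, independent values. These sets share libraries, so that rate may not hold here. In a set with 4 values at 0, as for Prox1 below, any other value is flagged. Library 3 of AngII was high for Klf2 (51.5 FPKM), Vcam1 (64.1), Sele (1.88) and Selp (6.91). Library 1 of AngII+BAI was low for Kdr (6.35 FPKM) and Notch4 (0) and high for Klf2 (51.99). Vcam1 was high in library 5 of AngII+BAI (81.5 FPKM), Sele in library 5 of AngII+GAS (2.0001), Calcrl in library 1 of AngII+ETH (6.50) and Flt1 in library 5 of AngII (15.8). Sox17 was high in library 5 of AngII+VAL (5.34 FPKM) and library 4 of Control (3.97). Sox18 was high in library 5 of AngII+ETH (28.2 FPKM) and low in library 2 of Control (19.9). Ptprb was high in library 1 of Control (33.8 FPKM), and Procr was low in library 2 of AngII+GAS (2.63). Prox1 was at 0 in the other 4 libraries of AngII+BAI, AngII+GAS and AngII+VAL and stood at 1.01 FPKM in library 3 of AngII+BAI, 0.980 in library 2 of AngII+GAS and 0.973 in library 5 of AngII+VAL.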

How the results depend on the processing

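Over 260 alternative counts (10 comparisons), a member passed the threshold in 5. In AngII+BAI against Control, quantile normalization called 1 (Tek, adjusted p = 0.0478), and leaving out a library called 0 to 2 (Tek and Ptprb without AngII+BAI 2, Tek without AngII+BAI 4). With the core level as a term, those left-out fits called 0 to 1. In AngII+BAI against AngII, leaving out a library called 0 to 1 of the members (Emcn without AngII 3) and 0 to 184 over all genes. In AngII+GAS against AngII, array weights called 1 (Thbd, adjusted p = 0.0348). Of 718 alternative fold changes for 30 named values, 2 changed sign: Ecscr in AngII+BAI against AngII to -0.098 without AngII+BAI 3 and 5, and Ramp2 in AngII+VAL against AngII to 0.19 with neuron and muscle levels as terms. Skeletal muscle levels did not overlap between AngII+VAL and AngII, so the muscle term cannot be separated from that comparison. The cause of either change of sign was not tested. Leaving out 1 library moved 12 of the 30 named values by over 1.5 times.

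Counts over all genes moved more. Leaving out 1 library gave 0 (AngII 5) to 184 (AngII+BAI 2) genes in AngII+BAI against AngII, where 44 were called. In AngII+BAI against Control it gave 8 (AngII+BAI 5) to 954 (AngII+BAI 2), where 190 were called, and in AngII+GAS against AngII 0 to 61 (AngII 2), where 2 were. In AngII against Control it gave 0 to 41 (AngII 2). Length slope as a term and the removal of AngII+BAI 1 with AngII+GAS 2 were added after seeing the data. No paired analysis was possible because the labels give no replicate numbers shared between groups.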
